A study of Mus musculus with 24 samples.

Results

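Osr1 and Osr2 are the mouse homologs of the Drosophila pair-rule gene odd-skipped, and encode zinc finger transcription factors of one small family. Both were found by their identifiers in the deposited count table, which made 2 genes of 56748, and they were followed across all 8 groups of RNA-seq libraries, with 3 libraries in each group. The tissue was dental mesenchyme of the first mandibular molar of ICR mouse embryos, separated from the epithelium with the enzyme dispase. The cap stage was taken at embryonic day 13 and the bell stage at embryonic day 15. Cap-W and Bell-W were the undivided tissue, Cap-L and Bell-L its lingual part on the tongue side, and Cap-B and Bell-B its buccal part on the cheek side. The cap stage parts kept in culture for 2 days made up Cap-L+2D and Cap-B+2D. No genetic change or agent was named for any group. The series text describes the undivided groups as tooth germs, while the protocol describes isolated mesenchyme, and which of them holds for Cap-W and Bell-W was not settled by the labels.

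In the embryo, Osr1 is known for the intermediate mesoderm that forms the kidney and for connective tissue progenitors, including those between muscle fibres. Osr2 is known for growth of the palate and for keeping teeth in a single row. In mice without Osr2, extra teeth form on the tongue side of the molars, and genetic work places Osr2 in opposition to the Bmp4 and Msx1 pathway, in which the secreted signal Bmp4 and the homeobox factor Msx1 sustain each other in tooth mesenchyme. Osr2 transcripts have been described as a gradient in this mesenchyme, stronger on the tongue side. Both genes are also known from developing synovial joints, and both proteins can recruit Groucho co-repressors.

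On GRCm39, Osr1 (ENSMUSG00000048387) lies at chr12:9620116-9631500 on the plus strand, and its counted exons sum to 2066 bases in 4 blocks. Its span overlaps that of 1 other gene, 1700022H16Rik, with which its exons share 0 bases. Osr2 (ENSMUSG00000022330) lies at chr15:35296244-35303451 on the plus strand, with 3623 counted bases in 4 blocks and no overlapping gene. The sequences are shown because reads of 2 related genes could be mistaken for each other. The coding sequences run to 798 bases in Osr1 and 828 in Osr2, and 68.4% of their 786 aligned bases were identical. The longest stretch that both share without a difference is 23 bases long. It is printed in capitals within 53 bases of exon 2 of each gene, read from the plus strand at chr12:9629720-9629772 for Osr1 and at chr15:35301028-35301080 for Osr2.
Osr1: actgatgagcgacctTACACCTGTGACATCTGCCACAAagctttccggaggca
Osr2: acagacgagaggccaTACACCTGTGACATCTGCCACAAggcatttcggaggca
The bases on both sides of the shared run already differ between the genes.

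Library totals ranged from 20581720 to 39266497 counts, with a median of 27677163. Osr1 had between 560 and 6804 counts in a library and Osr2 between 4478 and 11206, so neither was near the 3 counts taken as the floor, which came to 0.0764 to 0.146 CPM (counts scaled to a common library size, here with TMM factors over all 24 libraries). The 9 dental mesenchyme markers summed to between 2080 and 4034 CPM in every library, with none of them at 0. Skeletal muscle markers were also present. Their sum was 19.6 to 20.3 CPM in Cap-L and 237 to 253 in Cap-B, 116 to 124 in Bell-L and 984 to 1010 in Bell-B, 308 to 328 in Cap-L+2D and 3951 to 4162 in Cap-B+2D, and 7.50 to 19.1 in the undivided libraries. Epithelial markers summed to 78.4 to 696 CPM, apart from 1 Bell-W library at 1763. For both Osr1 and Osr2 the SD was larger in Cap-W and Bell-W than in any group of the parts. The sides are those of the labels. In situ hybridization has placed some genes on one side of the cap stage mesenchyme. Those described as lingual had log2 fold changes of Cap-B over Cap-L of 0.96 for Osr2, 0.45 for Dkk2 and 0.38 for Sfrp2. Bmp4, described as buccal, had 0.30. For Msx1, at 0.10, and Runx2, at -0.85, the paper's text names the buccal side, while its figure legend gives stronger lingual expression. Only Osr2 and Runx2 passed both the test and the fold limit given further on. Dkk2, Sfrp2 and Bmp4 passed the test but not the fold limit, with edgeR adjusted p of 1.59e-07, 2.31e-06 and 2.17e-05. Osr2, Dkk2 and Sfrp2 lay opposite to their described side and Bmp4 on its described side. For Runx2 the described side is not settled. Whether the side labels are right was not tested. Nothing in the labels says that the 3 libraries of a group came from separate animals, so p-values measure the spread between these libraries, which may be technical. The paper's methods speak of triplicates and also of fewer biological replicates. Scatter between libraries of the same group was taken over many genes as chi-square per degree of freedom, near 1 for counting error alone. Pairs of the parts had 1.29 to 8.96. Cap-W replicate 1 had 142 and 109 against its group, and Bell-W replicate 3 had 55 and 49.0. In bulk tissue, fewer cells that express a gene and less RNA of that gene per cell cannot be told apart.

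Osr1 was lowest in the undivided mesenchyme and highest in the buccal part at the cap stage. Its level was 60.1, 49.6 and 55.0 CPM in the 3 Cap-W libraries. In Cap-L it was 80.8, 87.0 and 80.5 CPM, and in Cap-B 225, 221 and 220 CPM. After culture the values were 117, 112 and 110 CPM in Cap-L+2D and 187, 186 and 192 CPM in Cap-B+2D. Both cultured groups thus lay between the uncultured parts of the cap stage. At the bell stage Osr1 stood at 102, 108 and 104 CPM in Bell-L and at 112, 114 and 112 CPM in Bell-B. Bell-W gave 36.6, 23.5 and 39.2 CPM, the lowest values of all 24 libraries. Ordered by group mean, from 33.1 CPM in Bell-W to 222 CPM in Cap-B, only 1 of the 7 pairs of neighbours had overlapping libraries, Bell-B and Cap-L+2D. The highest group mean was 6.70 times the lowest.

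Osr2 varied less. Its level was 250, 190 and 209 CPM in Cap-W. In Cap-L it was 224, 241 and 222 CPM, and in Cap-B 448, 432 and 436 CPM. Cap-B stood alone, above every other library of the series. After culture the values were 278, 269 and 268 CPM in Cap-L+2D and 286, 291 and 307 CPM in Cap-B+2D. The bell stage parts were close together, with 257, 256 and 257 CPM in Bell-L and 261, 265 and 256 CPM in Bell-B. Bell-W gave 172, 213 and 195 CPM. The order of the group means was the same as for Osr1, from 194 CPM in Bell-W to 439 CPM in Cap-B, a ratio of 2.27. Of the 7 pairs of neighbours in that order, 3 overlapped, namely Bell-W with Cap-W, Cap-W with Cap-L, and Bell-L with Bell-B.

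**Figure D1:**
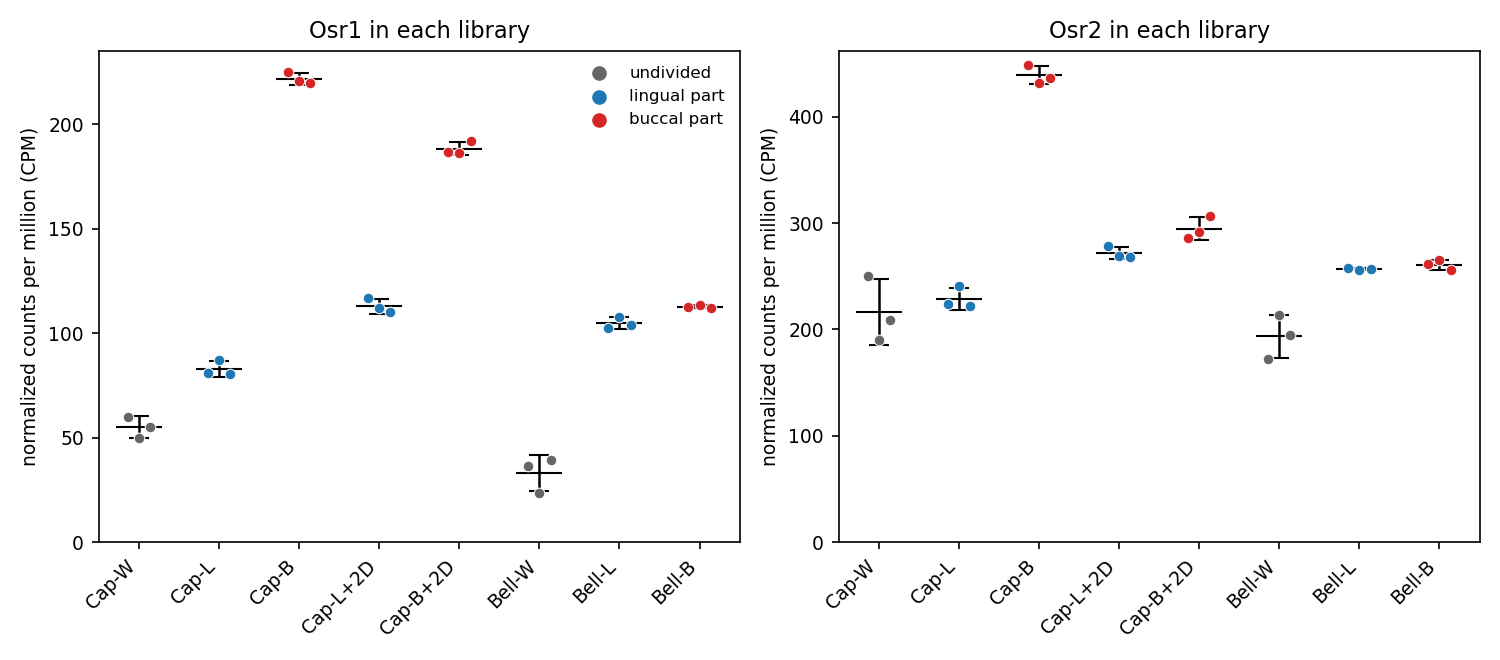
Normalized CPM of Osr1 (left) and Osr2 (right) on the vertical axes for each of the 24 libraries (points) in the 8 groups, with the group mean and SD (bars, n = 3). Cap-B is the highest group for both genes, at means of 222 CPM for Osr1 and 439 CPM for Osr2, and Bell-W is the lowest.

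The first question was whether the 2 genes differ between the sides of the tooth germ. At the cap stage, both were higher in the buccal part. Osr1 was 2.72-fold higher in Cap-B than in Cap-L, a log2 fold change of 1.45 with a standard error (SE) of 0.045 and an edgeR adjusted p of 1.04e-14. Osr2 was 1.95-fold higher, with a log2 fold change of 0.96 (SE 0.045, edgeR adjusted p = 3.37e-12). Neither gene had overlapping libraries between the sides. A gene was called where its adjusted p was under 0.05 and its absolute log2 fold change over 0.5, and 10.4% of the 20653 genes tested were called higher in Cap-B by that rule and 7.1% lower. Without regard to the fold, 26.2% of the genes tested had every Cap-B library above every Cap-L library. The Osr1 fold change was above that of 96.9% of the genes tested and the Osr2 fold change above that of 94.3%. The direction of Osr2 in these libraries, higher in the part labelled buccal, is the reverse of the gradient given above as background. All 8 skeletal muscle markers and all 5 Schwann cell markers were also called higher in Cap-B, with median log2 fold changes of 4.19 and 1.32, while 6 of 7 epithelial and 5 of 5 tested osteoblast markers were called lower. Their part in the Osr1 and Osr2 difference was not tested.

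At the bell stage the sides were close. Osr1 was 1.08 times as high in Bell-B as in Bell-L, a log2 difference of 0.11 (SE 0.033, edgeR adjusted p = 0.00966), which is under the limit on the fold, although its 3 Bell-B libraries lay above the 3 Bell-L libraries. Such separation was seen in 22.1% of genes at this stage. For Osr2 the libraries overlapped, and the log2 difference was 0.02 with a 95% interval of -0.04 to 0.09 (edgeR adjusted p = 0.605). Neither gene was called, in a comparison in which 12.9% of 21181 genes were, 6% higher and 6.88% lower. All 8 skeletal muscle markers and 4 of 5 Schwann cell markers were called higher in Bell-B, with median log2 fold changes of 2.84 and 0.99, and 5 of 6 macrophage markers were called lower. Their part in the values of Osr1 and Osr2 was not tested.

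After 2 days of culture only 1 of the 2 genes was called between the sides. Osr1 was still higher in the buccal part, by 1.66-fold, with a log2 fold change of 0.73 (SE 0.038, edgeR adjusted p = 1.26e-14), and its groups did not overlap. Osr2 in Cap-B+2D was 1.08 times its level in Cap-L+2D, a log2 difference of 0.11 (SE 0.037, edgeR adjusted p = 0.0151), which was not called. Its libraries did not overlap either, the highest Cap-L+2D value being 278 CPM and the lowest Cap-B+2D value 286 CPM. In this comparison 12.5% of 21195 genes were called higher, 12.5% were called lower, and 29.4% had every buccal library above every lingual one. Skeletal muscle markers were again called higher in 8 of 8 cases, with a median log2 fold change of 3.71, and Schwann cell markers in 3 of the 3 tested. Lower calls were made for 6 of 6 osteoblast markers, 6 of 7 epithelial markers with a median of -2.51, 5 of 6 endothelial markers with a median of -1.37, and 4 of 6 macrophage markers. Their part in the Osr1 difference was not tested.

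Next, the side difference itself was compared between stages. From cap to bell, the buccal-over-lingual log2 difference of Osr1 became smaller by 1.34, with an interaction of -1.34 (SE 0.055, edgeR adjusted p = 4.46e-18). That of Osr2 changed by -0.94 (SE 0.053, edgeR adjusted p = 8.20e-15). With interactions counted at an adjusted p under 0.05 alone, 18% of 21931 genes were called in that direction and 14.5% in the other. From uncultured to cultured cap tissue the side difference changed by -0.72 for Osr1 (SE 0.059, edgeR adjusted p = 3.47e-11) and by -0.86 for Osr2 (SE 0.059, edgeR adjusted p = 6.77e-13), against 19.5% of 22098 genes called in the same direction. Both interactions use the same Cap-L and Cap-B libraries and are not independent of each other.

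**Figure D2:**
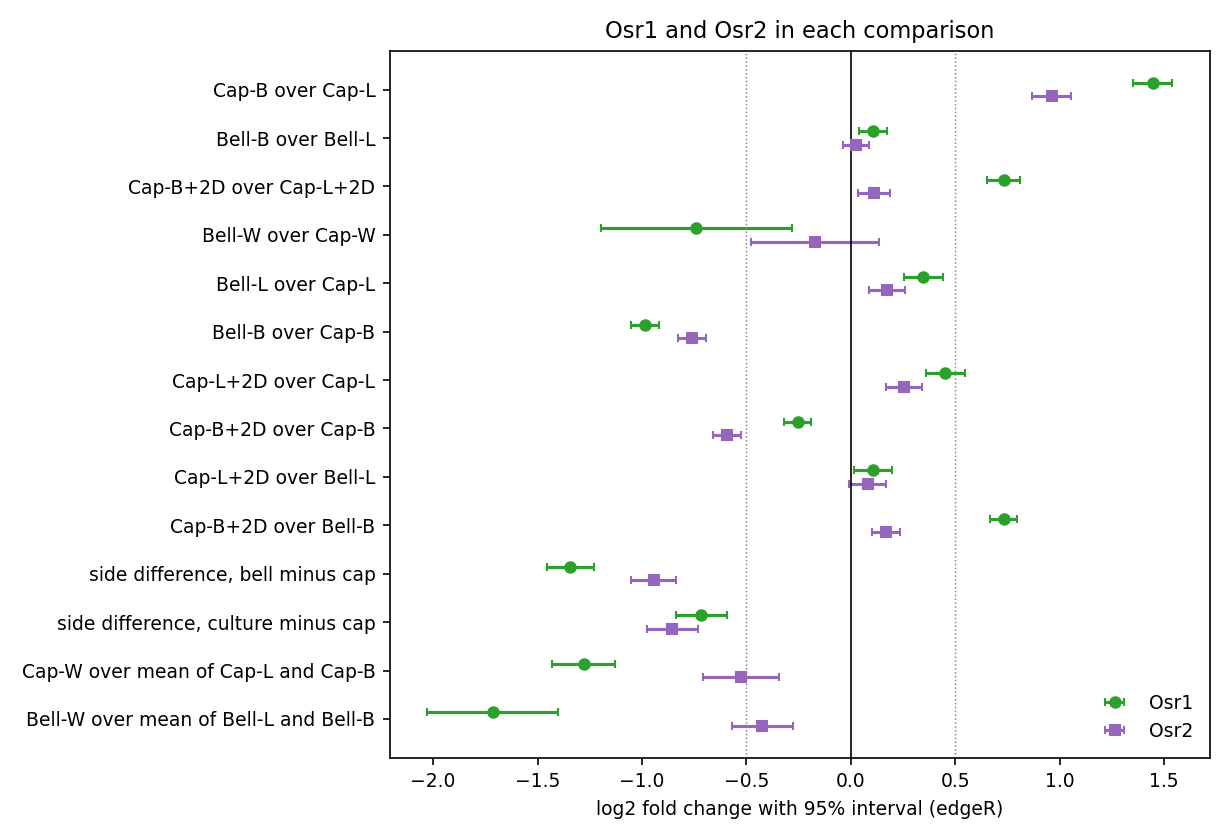
Log2 fold changes of Osr1 (circles) and Osr2 (squares) in the 14 comparisons, on the horizontal axis, with 95% intervals from the edgeR fit (bars) and dotted lines at the fold limit of 0.5. In Cap-B over Cap-L both genes lie to the right, at 1.45 and 0.96, and in Bell-B over Bell-L both are near 0.

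The change with stage was examined within each side. Both genes were lower in Bell-B. Osr1 was 1.98-fold lower in Bell-B than in Cap-B, with a log2 fold change of -0.99 (SE 0.032, edgeR adjusted p = 1.43e-22). Osr2 was 1.69-fold lower, with a log2 fold change of -0.76 (SE 0.033, edgeR adjusted p = 1.74e-19). No library of Bell-B reached the range of Cap-B for either gene, where 27.4% of 21992 genes were separated in this way, 6.73% were called lower and 12% higher. Markers of other cells moved with this change of stage, with higher calls in Bell-B for 8 of 8 skeletal muscle, 6 of 7 epithelial and 6 of 6 macrophage markers, and their part in it was not tested. In the lingual part the differences had the opposite sign and were under the fold limit. The log2 fold change of Bell-L over Cap-L was 0.35 for Osr1 (SE 0.045, edgeR adjusted p = 5.57e-07) and 0.17 for Osr2 (SE 0.042, edgeR adjusted p = 0.0013), in a comparison that called 20% of 21425 genes. Every Bell-L library was above every Cap-L library for both genes, though for Osr2 the gap was only from 241 to 256 CPM. As many as 29.1% of genes were separated in this direction.

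In the undivided mesenchyme Osr1 was lower at the bell stage, with a log2 fold change of -0.74 for Bell-W over Cap-W (SE 0.196, edgeR adjusted p = 0.0402). The 3 Bell-W libraries all lay below the 3 Cap-W libraries, which held for 16.5% of the 20940 genes, and 4.21% were called lower. This call was lost in 5 of the 6 fits with 1 library left out, in which the adjusted p ranged up to 0.114, and was kept only without Bell-W replicate 3. Without Bell-W replicate 2, the lowest Osr1 library of all, the log2 fold change was -0.54. For Osr2 the ranges overlapped, and the log2 difference of -0.17 had a 95% interval of -0.48 to 0.14 (edgeR adjusted p = 0.433).

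Culture was also compared with the uncultured tissue of the same side. In the buccal part Osr2 was lower after culture, 1.51-fold, with a log2 fold change of -0.59 for Cap-B+2D over Cap-B (SE 0.032, edgeR adjusted p = 3.98e-17). Osr1 differed by -0.26 on the log2 scale (SE 0.031, edgeR adjusted p = 1.28e-08), under the fold limit, with all cultured libraries below all uncultured ones. Of all genes, 16.6% were called lower, 17.9% were called higher, and 35.6% were separated in this direction. Marker lists changed with culture in the same buccal libraries. Higher calls were made for 8 of 8 skeletal muscle markers, with a median log2 fold change of 3.49, 5 of 6 macrophage and 5 of 6 osteoblast markers. Lower calls were made for 6 of 7 epithelial markers with a median of -2.96, 6 of 6 endothelial markers with a median of -1.32, 5 of 5 erythroid markers with a median of -5.99, and 4 of 5 Schwann cell markers. Their part in the Osr2 change was not tested. In the lingual part neither gene was called, although the cultured libraries were all above the uncultured ones. The log2 fold change of Cap-L+2D over Cap-L was 0.45 for Osr1 (SE 0.045, edgeR adjusted p = 2.74e-09) and 0.25 for Osr2 (SE 0.042, edgeR adjusted p = 9.92e-06), while 35.4% of genes were called and 33.1% were separated upward. These comparisons share their Cap-L and Cap-B libraries with those of stage.

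Against the bell stage, whose embryonic day is that of the cap stage plus the 2 days of culture, only Osr1 in the buccal part was called. It was 1.66-fold higher in Cap-B+2D than in Bell-B, with a log2 fold change of 0.73 (SE 0.032, edgeR adjusted p = 1.41e-19), and 15.5% of genes were called higher. Osr2 differed there by 0.17 on the log2 scale (SE 0.033, edgeR adjusted p = 3.83e-05). All Cap-B+2D libraries were above all Bell-B libraries for both genes, as for 33.2% of genes. In the lingual part the log2 differences between Cap-L+2D and Bell-L were 0.11 for Osr1 (95% interval 0.01 to 0.20, edgeR adjusted p = 0.0437) and 0.08 for Osr2 (95% interval -0.01 to 0.17, edgeR adjusted p = 0.103), in a comparison that called 31.2% of genes. The cultured libraries were all above those of Bell-L for both genes, as for 32.9% of genes. Without TMM scaling both lingual differences had the opposite sign, at -0.0069 for Osr1 and -0.032 for Osr2, while the median of all genes moved to -0.12.

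The undivided libraries did not lie between the parts for Osr1. Every Cap-W library was below every Cap-L and Cap-B library, and every Bell-W library was below every library of the bell stage parts. Such a position was found for 15.6% of 21215 genes in Cap-W and 9.67% of 21887 genes in Bell-W. Against the mean of the parts on the log2 scale, Osr1 was lower by 2.43-fold in Cap-W, with a log2 fold change of -1.28 (SE 0.067, edgeR adjusted p = 9.11e-07), and by 3.28-fold in Bell-W, with a log2 fold change of -1.71 (SE 0.140, edgeR adjusted p = 3.63e-05). By the call rule, 12.6% of genes were lower in Cap-W and 9.7% higher, and 5.35% were lower in Bell-W. For Osr2, Cap-W overlapped Cap-L, and the log2 fold change against the mean of the parts was -0.53 (SE 0.082, edgeR adjusted p = 0.000779). That call was lost without Cap-W replicate 2, at -0.44, which is under the fold limit. Bell-W was below both parts in every library, with a log2 fold change of -0.42 (SE 0.065, edgeR adjusted p = 0.00153), also under the limit. Marker lists moved with Osr1 in the undivided libraries. In Cap-W, lower calls were made for 6 of 8 skeletal muscle, 6 of 6 endothelial, 5 of 6 macrophage, 5 of 5 tested osteoblast and 2 of 5 Schwann cell markers, and higher calls for 5 of 7 epithelial markers. In Bell-W, 8 of 8 skeletal muscle and 5 of 5 Schwann cell markers were called lower. Of the 8 connective tissue progenitor genes, 4 were called lower in Cap-W and 3 in Bell-W, none was called higher, and the medians were -1.18 and -0.70. The member with the smallest adjusted p, the matrix gene Dpt, had means of 0.340 CPM in Cap-W and 0.771 CPM in Bell-W against 8.57 to 118 CPM in the parts, while Cxcl12 had log2 differences of 0.04 and 0.06 and Pdgfra of 0.39 and -0.26, none of them called. Their part in the Osr1 result was not tested.

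The balance of the 2 genes was compared within each library, as the log2 ratio of Osr2 to Osr1 per kilobase of counted exon, a quantity that needs no scaling between libraries. It was 0.66, 0.66 and 0.65 in Cap-L and 0.18, 0.16 and 0.18 in Cap-B. After culture it was 0.44, 0.46 and 0.48 in the lingual part and -0.20, -0.16 and -0.13 in the buccal part. Cap-B+2D was thus the only group in which Osr1 exceeded Osr2 per kilobase, at 91.2 ± 1.50 against 81.4 ± 3.01 CPM per kilobase (SD, n = 3). Its raw counts were lower for Osr1, at 6804, 5343 and 6060 against 10416, 8360 and 9697 for Osr2. The sign of the ratio therefore rests on the counted exon lengths of 2066 and 3623 bases, and which gene had more transcripts was not tested. At the bell stage the ratio was 0.52, 0.44 and 0.50 in Bell-L and 0.41, 0.41 and 0.38 in Bell-B. The buccal ratio was below the lingual one by 0.48 at the cap stage, 0.08 at the bell stage and 0.62 after culture, with no overlap in any of the 3 pairs. The mean difference over the 3 pairs was -0.40. In a two-sided exact permutation test of the side labels within pairs, p was 0.00025, the smallest that its 8000 arrangements can give. That value follows from the separation in all 3 pairs and adds nothing to it. The gaps also restate the side differences of the 2 genes given above. How often other pairs of genes separate in this way was not computed. The undivided libraries had the highest ratios, 1.25, 1.13 and 1.12 in Cap-W and 1.42, 2.37 and 1.51 in Bell-W, where the second library was also the one with the least Osr1.

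**Figure D3:**
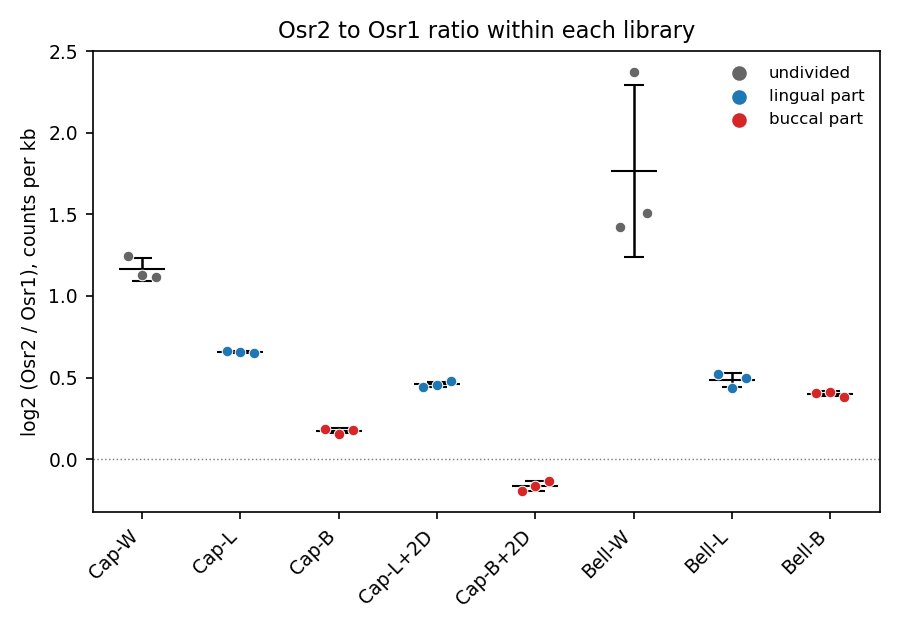
Log2 ratio of Osr2 to Osr1 per kilobase (vertical axis) in each library (points) of the 8 groups, with the group mean and SD (bars, n = 3). Within each pair the buccal points lie below the lingual ones, and only the Cap-B+2D points lie under 0, at -0.20 to -0.13.

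The pathway that Osr2 is known to oppose was followed in the same comparisons. Bmp4 was at 73.6 ± 2.17 CPM in Cap-L and 89.0 ± 1.68 CPM in Cap-B (SD, n = 3), a log2 difference of 0.30 that was under the fold limit, and its side differences at the bell stage and after culture were 0.49 and 0.27, also under it. Msx1 differed by 0.10, 0.08 and -0.36 on the log2 scale in the same order, none of them called. Of the 9 genes listed for the Bmp4 and Msx1 pathway, 2 were called higher and 4 lower in Cap-B, with a median log2 fold change of -0.10 against -0.01 for all genes. Of all genes tested, 10.4% were called higher there and 7.1% lower. The cap stage calls included Lef1, a nuclear mediator of Wnt signalling, which was higher by 0.72 on the log2 scale (SE 0.045, edgeR adjusted p = 2.63e-10), and the bone and tooth regulator Runx2, which was lower with a log2 fold change of -0.85 (SE 0.047, edgeR adjusted p = 3.88e-11). Inhba, a subunit of activin, was also lower, at -0.99. At the bell stage 3 of the 9 were called higher and 1 lower, against 6% and 6.88% of all genes. After culture 1 was called higher and 4 lower, against 12.5% of all genes each way. With stage, Bmp4 was called higher on both sides, by 0.72 in the buccal part (SE 0.035, edgeR adjusted p = 4.45e-18) and by 0.52 in the lingual part (SE 0.043, edgeR adjusted p = 2.71e-10), while Osr1 and Osr2 had negative log2 differences in the buccal and positive ones in the lingual part. Msx1 had log2 differences of -0.33 and -0.31 that were not called. With culture, Bmp4 was again called higher on both sides, by 0.60 in the buccal part (SE 0.035, edgeR adjusted p = 1.88e-16) and by 0.62 in the lingual part (SE 0.043, edgeR adjusted p = 3.31e-12). Msx1 was called lower on both, with log2 fold changes of -1.23 (SE 0.035, edgeR adjusted p = 9.43e-25) and -0.77 (SE 0.053, edgeR adjusted p = 2.30e-12). A link between Osr2 and these values of Bmp4 and Msx1 was not tested.

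Secreted antagonists of Wnt signalling are a further group linked to Osr2 in the tooth. Sfrp2, which binds Wnt ligands, and Dkk2, which binds their co-receptors, both had log2 side differences under the fold limit at the cap stage, 0.38 and 0.45. Both were called lower in Bell-B than in Bell-L, Sfrp2 with a log2 fold change of -0.77 (SE 0.032, edgeR adjusted p = 4.01e-23) and Dkk2 with -1.62 (SE 0.032, edgeR adjusted p = 1.89e-34). Dkk2 was at 360 ± 6.35 CPM in Bell-L and 117 ± 2.07 CPM in Bell-B (SD, n = 3). Their side differences changed from cap to bell by -1.16 for Sfrp2 (edgeR adjusted p = 5.05e-16) and -2.07 for Dkk2 (edgeR adjusted p = 2.87e-22). Of the 7 antagonists, 3 were called in this direction, which is also that of Osr1 and Osr2, and 4 in the other, among them Frzb with 0.66. The shares of all genes were 18% and 14.5%, and the median of the list was 0.58. After culture Sfrp2 was called lower in the buccal part at -0.51, and Dkk2 differed by -0.37. Over the 7 antagonists listed, 1 was called higher and 2 lower at the cap stage, 1 higher and 2 lower at the bell stage, and 5 lower with none higher after culture, with medians of -0.23, 0.05 and -1.37. Of all genes, 10.4% were called higher and 7.1% lower in Cap-B, 6% and 6.88% in Bell-B, and 12.5% each way in Cap-B+2D.

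**Figure D4:**
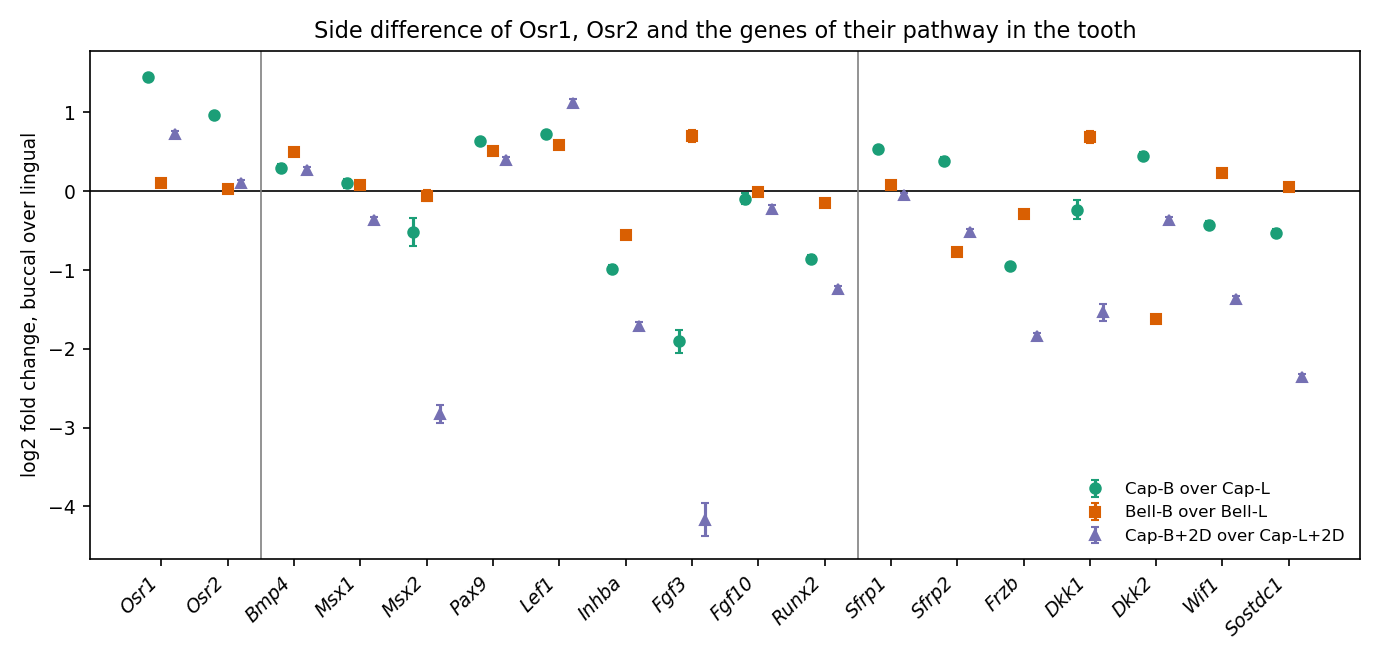
Log2 fold changes of the buccal over the lingual part (vertical axis) for Osr1, Osr2, the 9 genes listed for the Bmp4 and Msx1 pathway (middle) and 7 secreted Wnt antagonists (right), with SE (bars), in the cap stage (circles), bell stage (squares) and cultured (triangles) comparisons. Dkk2 lies at 0.45, -1.62 and -0.37 in these 3 comparisons, while Osr1 lies at 1.45, 0.11 and 0.73.

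Genes of the other settings in which Osr1 and Osr2 are known were counted in the same way. The shares of all genes called higher and lower were 10.4% and 7.1% in Cap-B, 6% and 6.88% in Bell-B, and 12.5% each in Cap-B+2D. Of 8 connective tissue progenitor genes, 5 were called higher and 1 lower in Cap-B, with a median log2 fold change of 1.11. The chemokine gene Cxcl12 was higher by 1.72 (SE 0.043, edgeR adjusted p = 4.98e-16), Dpt by 2.19 (SE 0.068, edgeR adjusted p = 9.46e-15) and Tcf7l2, a transcription factor of muscle connective tissue, by 1.15 (SE 0.047, edgeR adjusted p = 4.87e-13). At the bell stage 3 were called higher and 1 lower, with a median of 0.11, and after culture 3 higher and 1 lower, with a median of 0.22. The side difference changed from cap to bell toward the lingual part in 7 of the 8 and away from it in 1, by the adjusted p alone, which called 18% and 14.5% of all genes in these directions. Joint interzone genes, which mark sites of future joints, gave 1 call in each direction at the cap stage, 1 lower call among the 5 tested at the bell stage and 6 lower calls of 6 after culture. Of 7 nephric mesoderm genes, 3 were tested at the cap stage, and Six2 was called lower, with -1.23, and Eya1 higher, with 0.97. The 6 Groucho family genes gave 1 call in each direction at the cap stage, Tle1 higher with 0.78 and Tle4 lower with -0.56. Of 8 transcription factors of the tooth and jaw field, 1 was called higher in Cap-B, Lhx8, with 0.89, and none lower.

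The genes most like Osr1 and Osr2 in pattern were ranked by Pearson's r of log2 CPM over the 24 libraries, among 14036 genes. For Osr1 they were Fgf18, a fibroblast growth factor, with r = 0.949, Lrrn1, which encodes a leucine-rich repeat membrane protein, with 0.947, Arhgef7, a guanine nucleotide exchange factor, with 0.937, the chemokine Cxcl14 with 0.935, and the adaptor Shb with 0.935. For Osr2 they were the mitochondrial carrier Slc25a23 with 0.916, Cxcl14 with 0.902, the heparan sulfatase Sulf1 with 0.901, Sncaip with 0.893, and the ephrin receptor Ephb3 with 0.887. Osr1 and Osr2 had r = 0.864 with each other, which placed Osr2 at rank 49 for Osr1 and Osr1 at rank 12 for Osr2. The 24 points share their groups and undivided libraries, so these are descriptions with no test. Fgf18 had means of 13.4 CPM in Cap-L, 38.3 in Cap-B, 18.3 in Cap-L+2D, 34.1 in Cap-B+2D, 18.7 in Bell-L and 26.4 in Bell-B. At the bell stage its sides were further apart in proportion than those of Osr1, with 105 CPM in Bell-L and 113 CPM in Bell-B. Cxcl14, the one gene in both sets, had 51.3 CPM in Cap-L and 165 CPM in Cap-B.

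**Figure D5:**
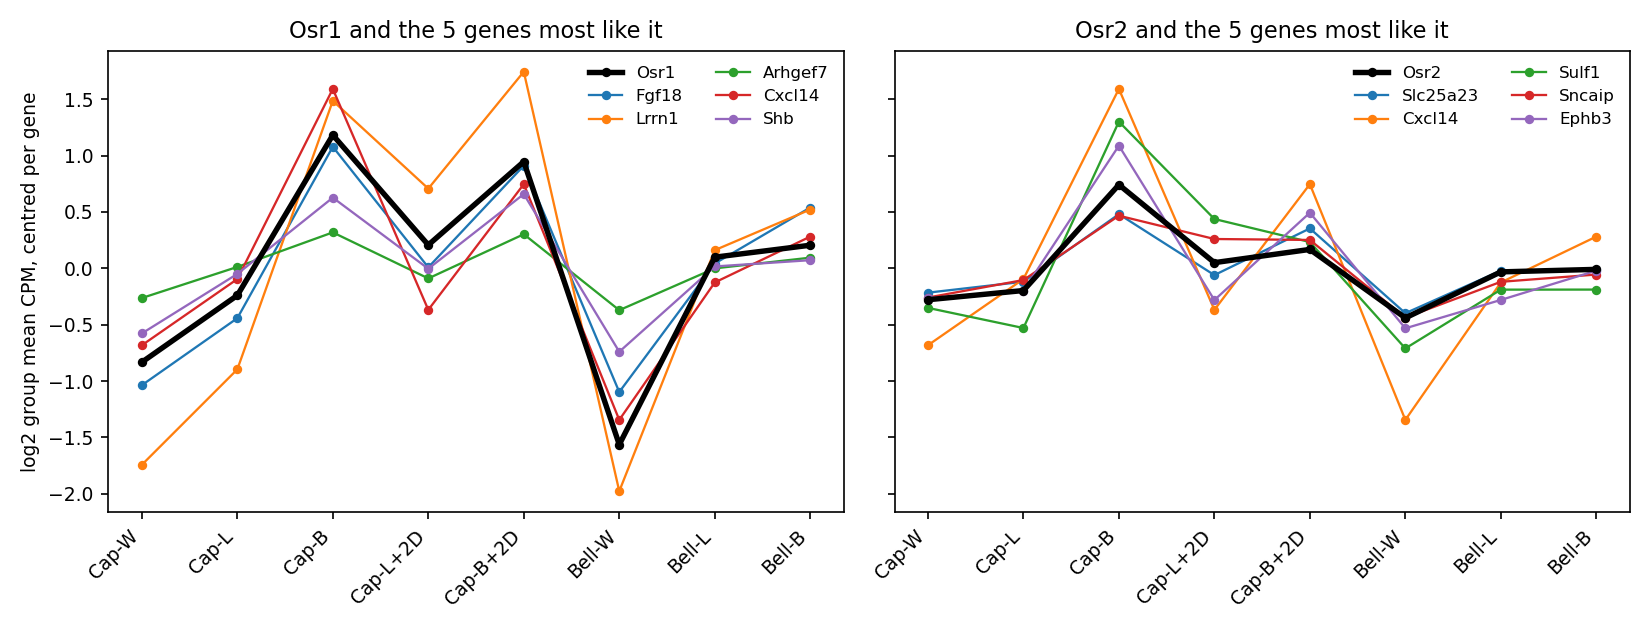
Group means as log2 CPM, centred on each gene's mean over the 8 groups (vertical axis), for Osr1 (left, black) and Osr2 (right, black), each with the 5 genes of the highest correlation (coloured lines). Every line peaks at Cap-B or Cap-B+2D and is lowest at Bell-W.

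The chromosomal neighbours were read in the same fits. The nearest gene that passed the filter before Osr1 was Gm7099, 140015 bases away, and after it Gm5182, 570641 bases away. Gm7099 had a log2 side difference of -0.44 at the cap stage and Gm5182 of 0.10, and neither was called. Before Osr2, at 22431 bases, lay Gm33497, at a mean of only 0.775 CPM. It was called higher in Cap-B, with a log2 fold change of 1.32 (SE 0.255, edgeR adjusted p = 0.000376), and in Cap-B+2D, with 1.58 (SE 0.294, edgeR adjusted p = 6.17e-05), while Osr2 was called only in the first. On the other side, at 65147 bases, lay 4921515G04Rik, with a mean of 0.188 CPM, which did not pass the filter of the cap stage comparison. It was called higher in Cap-B+2D than in Cap-L+2D, with a log2 fold change of 2.89 (SE 0.529, edgeR adjusted p = 4.94e-05). Against Bell-B it was also called higher in Cap-B+2D, with 1.03 (SE 0.372, edgeR adjusted p = 0.0159). Osr2 was called in neither comparison.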

How the data were processed

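RNA-seq counts were analysed as deposited. Per the file headers, the authors counted read pairs per gene with featureCounts 2.0.0 over the exons of Ensembl release 107 (GRCm39), with no strand option and no normalization. The submitters' processing notes name FastQC 0.12.1, Trimmomatic 0.39, Bowtie 1.2.3, Subread 2.0.3 and DESeq2 1.40.2. The paper's methods name other trimming and alignment tools and a stranded kit, so the aligner is uncertain here. Symbols came from GENCODE vM39 for 56010 of 56748 genes.

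Each comparison was fitted on the libraries of its groups in R 4.3.3 with edgeR 4.0.16 (TMM, filterByExpr, quasi-likelihood test, Benjamini-Hochberg adjustment over all genes tested). Groups of the same side were compared in 1 fit of stage and culture. SEs were derived from the F statistic. The scripts were tested on simulated data. Alternatives were RLE or no scaling factors, other filters, DESeq2 1.42.0, all 24 libraries in 1 fit, a replicate block, and leaving out each library. Floors cover counting error only.

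Osr1, Osr2 and the gene lists were chosen with earlier results of these data known. Genes named were the members, Bmp4, Msx1, Sfrp2, Dkk2, B2m, up to 3 list genes with the smallest adjusted p, the 5 most correlated genes of each member (average of at least 2 log2 CPM, prior count 2), and the nearest filtered neighbours.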

Additional observations from a re-analysis of the deposited data

Results flagged for a closer look

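For both genes the difference between sides was itself different between conditions by the interaction term of the edgeR fit. The buccal-over-lingual log2 difference of Osr1 changed by -1.34 from cap to bell and by -0.72 from uncultured to cultured cap tissue. In the cap comparison every buccal library of Osr1 lay above every lingual one, as for 26.2% of genes. Its bell libraries were also separated, as for 22.1% of genes, but the log2 difference of 0.11 was not called. The side difference of Osr2 changed by -0.94 from cap to bell and by -0.86 with culture. Its sides were separated in the cap comparison and overlapped in the bell comparison. By the adjusted p alone, 18% of genes were called in this direction from cap to bell, and 19.5% with culture. These 4 interactions kept their call in every alternative and with every library left out.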

How the results depend on the processing

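Of 197 values under other scalings, filters, tools, fits and the replicate block, 194 kept their direction and their side of the threshold. With total counts only, the Osr1 difference between undivided stages was -0.67 and no longer called (adjusted p = 0.0636), and the lingual differences between culture and bell stage turned to -0.0069 for Osr1 and -0.032 for Osr2, neither of which was called under either scaling. That scaling moved the median of all genes in the last comparison to -0.12. Of 258 values with 1 library left out, 252 kept their side of the threshold. The exceptions were Osr1 between undivided stages, at -0.88 to -0.54 and not called in 5 of 6 fits, and Osr2 in Cap-W against the parts, at -0.64 to -0.44 and not called in 1 of 9.

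The labels do not say whether same-numbered libraries share animals. Their deviations from the group means correlated at -0.240 to 0.325. With 3 libraries in each group, such values can neither show nor exclude pairing. With the replicate number as a block, no call changed. The Cap-B over Cap-L values with the block were 1.45 for Osr1 and 0.96 for Osr2, and the Bell-W over Cap-W value of Osr1 was -0.77.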

Other observations

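B2m, the beta-2-microglobulin gene, is used as a reference gene for quantitative PCR in the study. Its mean was 38.7 ± 6.45 CPM in Cap-W, 67.8 ± 2.31 in Cap-L, 61.2 ± 1.04 in Cap-B, 226 ± 13.4 in Cap-L+2D, 152 ± 2.57 in Cap-B+2D, 115 ± 11.2 in Bell-W, 135 ± 1.29 in Bell-L and 117 ± 2.62 in Bell-B (SD, n = 3). It was thus lowest in Cap-W and highest in Cap-L+2D.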
